A study of Mus musculus with 9 samples.

Results

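The integrated stress response is the shared programme by which cells slow protein synthesis and switch on repair genes when they meet misfolded protein, amino acid shortage or other stress. The genes described here are 10 of its core members: Atf4, Ddit3, Atf3, Atf5, Trib3, Chac1, Ppp1r15a, Sesn2, Fgf21 and Gdf15. They were chosen by symbol from textbook knowledge of the pathway, with earlier results of these data already known. All 10 symbols were found among the 46958 genes of the deposited count table. All 10 were also among the 14199 genes that passed the filter on low counts, although Fgf21 passed it only through its counts in the kFRA libraries.

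In this response, kinases that sense different stresses phosphorylate the translation factor eIF2alpha, which lowers the start of translation of most mRNAs while raising that of Atf4. The ATF4 protein and its target CHOP, encoded by Ddit3, are transcription factors that switch on genes of amino acid supply, redox balance and cell death, and also the phosphatase subunit that reverses the block. Plasma cells secrete antibody at high rates and depend on the folding machinery of the endoplasmic reticulum, where the kinase PERK starts this response. ATF4 is set mainly by translation, so mRNA levels do not give the amount of ATF4 protein.

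RNA was sequenced from the CD138+ fraction of single spleens, 1 library per mouse, from mice aged 3 months that had received no immunization. The mice were of a mixed C57/BL6x129/SVxBALB/c background and fell into 3 genotypes of 3 mice, namely WT (wild type), kFRA and DH-LMP2A. DH-LMP2A is known as an allele in which the Epstein-Barr virus protein LMP2A is placed in the immunoglobulin heavy chain locus, so that B-lineage cells form without a heavy chain. The series asks whether a free light chain from light chain deposition disease is toxic to the plasma cells that make it, and kFRA is known as the mouse line that carries this light chain. The labels do not describe the alleles or the promoters that drive them further, nor whether kFRA mice also carry DH-LMP2A, and the bead-purified fraction was not pure. The p-values measure the spread between these mice.

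The libraries held 15449026 to 21558128 counts. Levels are given as CPM, the count relative to a fixed library total after scaling between libraries, and 3 counts, taken as the floor of detection, were worth 0.127 to 0.205 CPM. A list of 10 plasma cell markers, such as Sdc1, which encodes CD138, summed to 19061 to 24359 CPM in WT, 34353 to 47400 CPM in DH-LMP2A and 20575 to 32274 CPM in kFRA libraries, and none of the 10 was at 0 in a genotype. Most of this sum was Jchain, the joining chain of secreted antibody, with means of 17810, 30940 and 21102 CPM, whereas Sdc1 had means of 411, 575 and 611 CPM. Tnfrsf17, the gene of the survival receptor BCMA, fell against WT by 1.69 on the log2 scale in kFRA (edgeR adjusted p = 0.00253) and by 1.16 in DH-LMP2A (0.0159). It was the only marker of this list called lower against WT. Of the 10 markers, 2 rose and 1 fell in kFRA against WT, where 17.8% of all genes were called. In DH-LMP2A against WT, 4 rose and 1 fell, where 12.4% were called. Those that rose in kFRA were Mzb1 (1.22, edgeR adjusted p = 0.0107) and Slamf7 (0.64, 0.0365). In kFRA against DH-LMP2A, none rose and 1 fell, where 5.02% were called. Because whole fractions were sequenced, fewer cells of a type and less RNA per cell cannot be told apart. The library that stood farthest from its own genotype was kFRA replicate 2, in which 1678 of 13941 genes other than immunoglobulin genes lay at least 2-fold from the mean of the other two. In the other libraries this number was 470 to 1360. The level of Xist, which coats the inactive X chromosome in female cells, lay between 494 and 923 CPM in kFRA replicate 2, DH-LMP2A replicates 1 and 2 and WT replicates 1 and 3, and at most 4.48 CPM in the other libraries. Without kFRA replicate 2, kFRA thus holds only libraries low in Xist, while the other genotypes hold both kinds. Results without that library therefore mix genotype in part with Xist level.

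ATF4 acts with C/EBP partners at a sequence called the C/EBP-ATF response element, searched here as TGATGNAA on both strands. The window ran from 250 bases before to 50 after each start in RefSeq (build GRCm38.p6), and all 10 members had a window. The element was found in the windows of 4 of the 10 members (Atf3, Trib3, Chac1 and Fgf21), against 4.51% of 27025 genes and 3.97% of 32851 windows. The cAMP response element TGACGTCA, which reads the same on both strands and does not overlap a match of the first, was found in Ppp1r15a alone among the members and in 1.79% of all windows. The longer endoplasmic reticulum stress element, CCAAT followed at a fixed spacing by CCACG and searched on both strands, was in none of the members' windows and in 0.119% of all windows. The sequences below show where the match sits in Fgf21, the member with the highest fold changes in both comparisons of kFRA, in Chac1 and Atf3, which hold the same letters but whose RNA did not pass the test with all 9 libraries, and in Ppp1r15a. They are written 5′ to 3′ on the strand of the gene, with the match in capitals.
Fgf21 (chr7:45615582-45615669, minus strand, match 139 bases before the start): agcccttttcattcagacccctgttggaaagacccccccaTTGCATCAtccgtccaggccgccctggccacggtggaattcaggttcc
Chac1 (chr2:119351009-119351096, plus strand, match 193 bases before the start): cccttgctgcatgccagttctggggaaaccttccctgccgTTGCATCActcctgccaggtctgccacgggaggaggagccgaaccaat
Atf3 (chr1:191183396-191183483, minus strand, match 110 bases before the start): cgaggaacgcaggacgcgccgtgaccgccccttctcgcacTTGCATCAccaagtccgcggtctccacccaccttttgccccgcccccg
Ppp1r15a (chr7:45526269-45526320, minus strand, match 12 bases before the start): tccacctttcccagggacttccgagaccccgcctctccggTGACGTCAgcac
The match in Fgf21, Chac1 and Atf3 is the same 8 letters, the reverse complement of the searched element. In Trib3 the match begins 14 bases after the start. The Atf3 stretch lies inside the longer span that the deposited table gives for that gene (chr1:191170296-191218039), since RefSeq's start belongs to a shorter transcript. A match is a description of the letters and not evidence that a factor binds there.

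Divided by gene length, Atf4 was by far the most abundant member, at a mean of 178 CPM per kilobase over all 9 libraries. Ppp1r15a followed at 34.1, Atf5 at 26.7, Ddit3 at 16.5, Chac1 at 10.3 and Sesn2 at 7.86 CPM per kilobase. Trib3, Atf3, Gdf15 and Fgf21 lay between 1.90 and 0.867 CPM per kilobase. The order was similar in each genotype at the top, with Atf4 first everywhere. In WT, Atf5 (20.5 to 35.6 CPM per kilobase) and Ppp1r15a (20.7 to 32.5) could not be ordered beyond their spread. In kFRA, Ppp1r15a (37.5 to 51.5) lay above every Atf5 value (19.0 to 37.4) by a narrow gap, and Ddit3 (19.4 to 28.5) overlapped Atf5. Fgf21 was last in WT at 0.378 and in DH-LMP2A at 0.143, and eighth of the members in kFRA at 2.08 CPM per kilobase, where Atf3 was last at 0.793.

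In kFRA against DH-LMP2A cells, 2 of the 10 members rose, Ddit3 and Fgf21, and none fell. Of all 14199 genes tested, 5.02% were called in this comparison by edgeR at an adjusted p under 0.05, that is 1.73% higher and 3.30% lower. At an unadjusted p under 0.05, which 22.4% of all genes passed, 5 members were higher and 0 lower. DESeq2 called 4 members higher and 0 lower, but it also called more of all genes than edgeR did. The median log2 fold change was 0.61 over the members and 0.00 over all genes. In 4 members (Ddit3, Ppp1r15a, Fgf21 and Gdf15) every kFRA library lay above every DH-LMP2A library, against 11.6% of all genes, and in none did every kFRA library lie below, against 13.9%. Without kFRA replicate 2 the members called numbered 4, while the share called among all genes went up to 22.7%. Without any other 1 library of these groups, 1 or 2 members and 2.41 to 3.59% of all genes were called.

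In kFRA against WT cells, 3 of the 10 members rose, Ddit3, Ppp1r15a and Fgf21, and none fell. This comparison called 17.8% of all genes, that is 6.68% higher and 11.1% lower. At an unadjusted p under 0.05, which 35.0% of all genes passed, 5 members were higher and 1 lower. DESeq2 called 5 members higher and 1 lower, a count that cannot be weighed here, since its share over all genes is not given. The members' median log2 fold change was 0.58 and that of all genes −0.04. The kFRA libraries lay entirely above the WT libraries in 4 members (Ddit3, Trib3, Ppp1r15a and Fgf21), against 14.2% of all genes, and entirely below them in Atf3, against 20.2%. Without kFRA replicate 2 the members called numbered 6, while the share called among all genes went up to 38.8%. In both counts of kFRA, Fgf21 is a member that passed the filter on low counts only through the kFRA libraries, and without it 1 and 2 members rose. The members' counts at an unadjusted p, by DESeq2 and without overlap, and their medians, also include Fgf21 in both comparisons of kFRA.

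In DH-LMP2A against WT cells, none of the 10 members rose and Gdf15 alone fell. This comparison called 12.4% of all genes, that is 5.07% higher and 7.30% lower. At an unadjusted p under 0.05, which 26.6% of all genes passed, 3 members were lower and 0 higher. DESeq2 called 1 member lower and 0 higher, and its share over all genes is not given here either. The members' median log2 fold change was −0.05 and that of all genes −0.01. In 4 members (Atf3, Sesn2, Fgf21 and Gdf15) the DH-LMP2A libraries lay entirely below the WT libraries, against 19.1% of all genes, and in none entirely above them, against 17.5%. The comparisons share libraries with one another, so their results are given side by side and not as separate evidence.

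**Figure D1:**
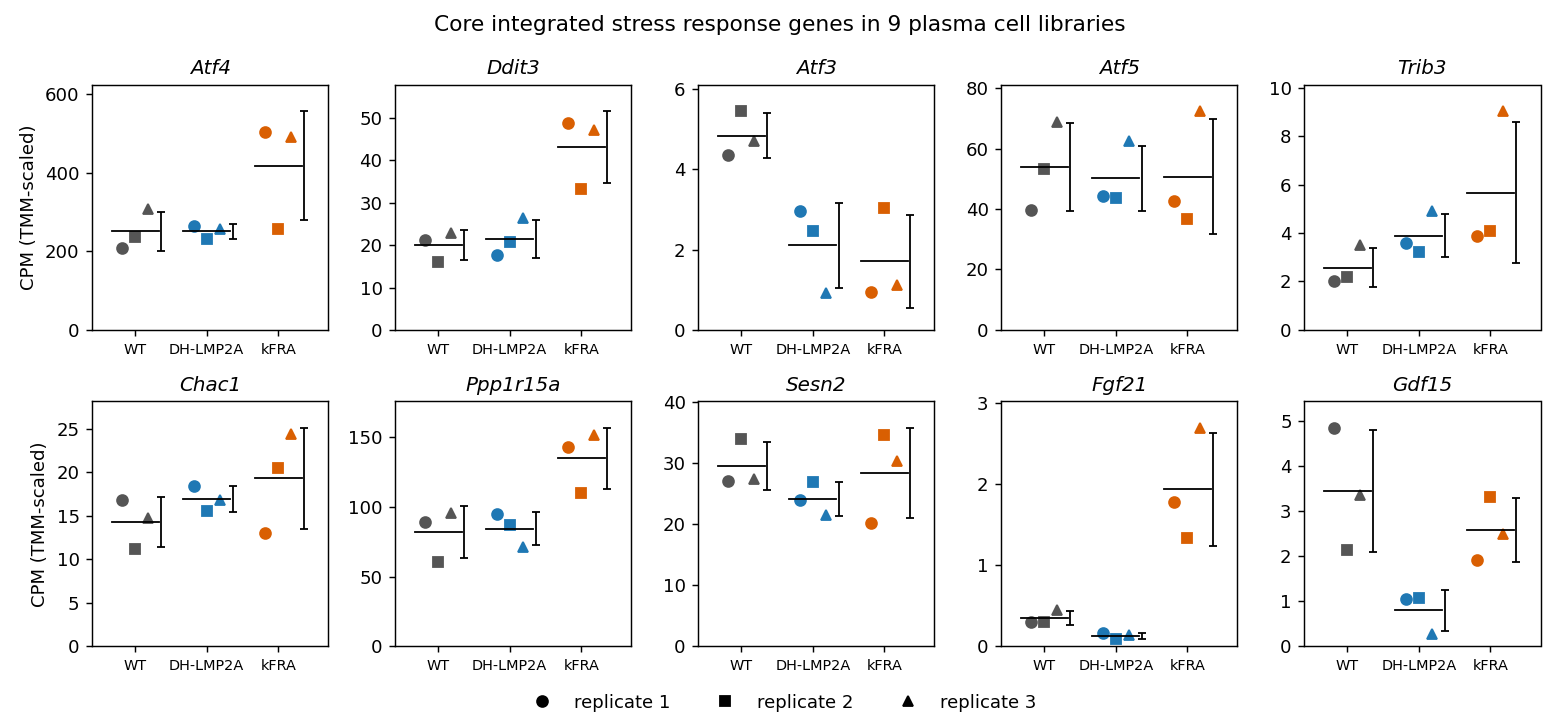
Level of each of the 10 members (CPM, linear axis from 0) in the 9 libraries by genotype, with the replicate number as the symbol, the mean of each genotype as a horizontal line and its SD as the bar beside it. Ddit3, Ppp1r15a and Fgf21 lie higher in all 3 kFRA libraries than in every WT and DH-LMP2A library, and in Atf4 kFRA replicate 2 sits with the other genotypes.

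The transcription factors come first. Atf4 (chr15:80255184-80257540, plus strand) encodes the factor at the centre of the response. Its level was 209, 235 and 307 CPM in WT replicates 1 to 3, 264, 230.0 and 257 CPM in DH-LMP2A and 504, 258 and 491 CPM in kFRA. Replicates 1 and 3 of kFRA were thus above all others, and kFRA replicate 2 lay within the range of WT. The means were 250.4 ± 50.7 CPM (SD, n = 3) in WT, 250.4 ± 18.0 CPM in DH-LMP2A and 418 ± 139 CPM in kFRA. The log2 fold change was 0.74 (SE 0.258) both against DH-LMP2A and against WT, and neither passed the test (edgeR adjusted p = 0.143 and 0.0765). Without kFRA replicate 2 it was 1.05 in both and passed (edgeR adjusted p = 0.00875 and 0.00502), when 22.7% and 38.8% of all genes passed too. DH-LMP2A and WT differed by a log2 fold change of 0.00.

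Ddit3 (chr10:127290774-127296288, plus strand) encodes CHOP, the factor that turns the response towards cell death when stress lasts. It was measured at 21.2, 16.0 and 22.8 CPM in WT, 17.6, 20.6 and 26.3 CPM in DH-LMP2A and 48.7, 33.3 and 47.2 CPM in kFRA. All 3 kFRA libraries were above all 6 others, kFRA replicate 2 being the lowest of them, and WT and DH-LMP2A overlapped. Ddit3 rose in kFRA by a log2 fold change of 1.0 (SE 0.212, 95% interval 0.52 to 1.48) against DH-LMP2A (edgeR adjusted p = 0.0278). Against WT it rose by 1.11 (SE 0.213, 95% interval 0.63 to 1.59, edgeR adjusted p = 0.00787). Between DH-LMP2A and WT the log2 fold change was 0.11 (edgeR adjusted p = 0.814).

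The call against DH-LMP2A was close to the threshold. It was lost without DH-LMP2A replicate 1 (edgeR adjusted p = 0.109) or 2 (0.0931) and without kFRA replicate 1 (0.122) or 3 (0.0911), with log2 fold changes between 0.90 and 1.22 over all cases of a library left out. The call against WT was kept when any 1 library of those groups was left out. Ddit3 shares 68 exon bases with Mars on the opposite strand, and the strand setting of the counting is not given in the sources used here. Mars, a transfer RNA synthetase gene, had means of 108, 111 and 144 CPM in WT, DH-LMP2A and kFRA and log2 fold changes of 0.38 and 0.41 in kFRA that did not pass the test (edgeR adjusted p = 0.251 and 0.138).

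Atf3 (chr1:191170296-191218039, minus strand) encodes a factor induced by ATF4 and also quickly by handling of cells. Its level was 4.35, 5.45 and 4.71 CPM in WT, 2.96, 2.46 and 0.915 CPM in DH-LMP2A and 0.957, 3.04 and 1.13 CPM in kFRA. Every WT library was above every other library, and the other genotypes overlapped. The log2 fold change was −1.47 (SE 0.505) in kFRA and −1.19 (SE 0.494) in DH-LMP2A against WT, and neither passed the test (edgeR adjusted p = 0.0727 and 0.158). Without kFRA replicate 2, its highest kFRA library, the value against WT was −2.14 and passed (edgeR adjusted p = 0.0117), as did 38.8% of all genes.

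Atf5 (chr7:44812256-44816599, minus strand) encodes a factor that, like ATF4, is translated when eIF2alpha is phosphorylated. Its level was 39.6, 53.3 and 68.9 CPM in WT, 44.2, 43.8 and 62.4 CPM in DH-LMP2A and 42.8, 36.8 and 72.4 CPM in kFRA. The 3 genotypes overlapped throughout, and replicate 3 was the highest in each. The log2 fold change of kFRA was 0.01 against DH-LMP2A, with a 95% interval from −0.63 to 0.66, and −0.09 against WT. Atf5 shares 82 exon bases with Il4i1 on the opposite strand, an immune gene that had means of 56.2 CPM in WT, 29.8 CPM in DH-LMP2A and 25.3 CPM in kFRA.

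**Figure D2:**
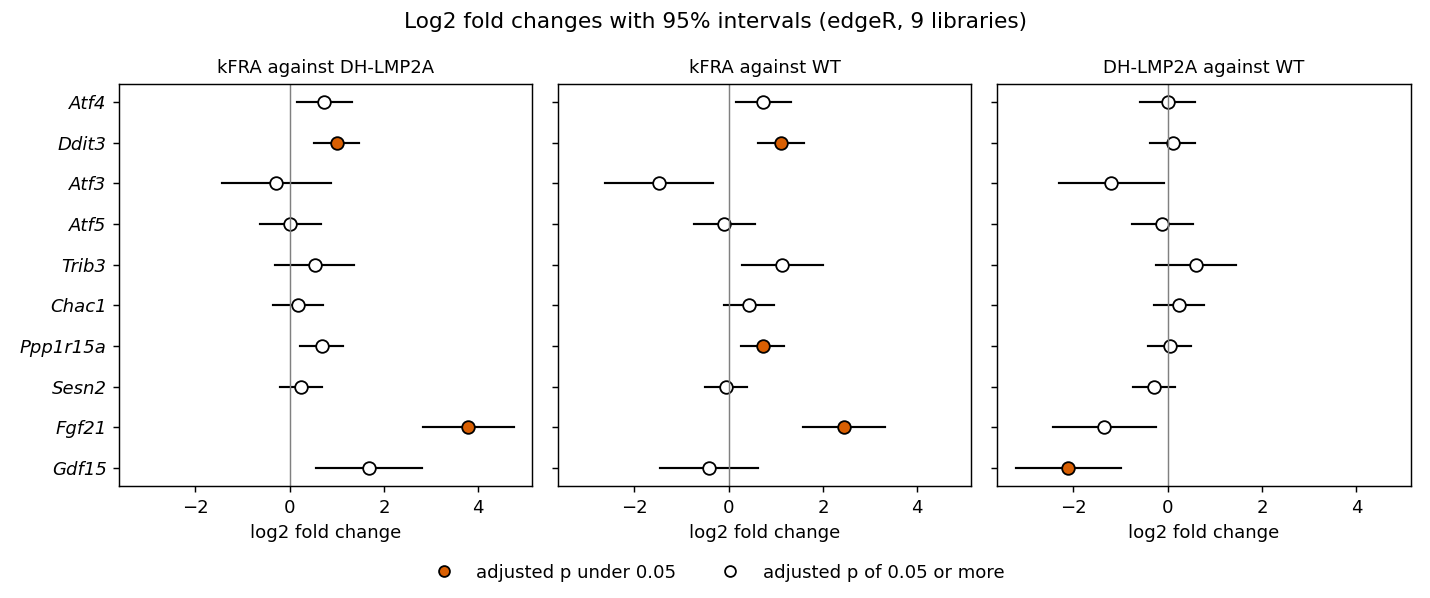
Log2 fold change of each member in the 3 comparisons (points, filled where the edgeR adjusted p was under 0.05), with 95% intervals as horizontal lines and zero as a grey line. In both comparisons of kFRA the intervals of Atf4, Ddit3, Ppp1r15a and Fgf21 lie above zero, and in DH-LMP2A against WT those of Atf3, Fgf21 and Gdf15 lie below it, although the adjusted p passed for only some of them.

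The next members feed back on the response. Ppp1r15a (chr7:45522916-45526268, minus strand) encodes GADD34, the subunit that directs a phosphatase to eIF2alpha and so restores translation. Its level was 88.8, 60.7 and 95.5 CPM in WT, 94.5, 87.0 and 71.5 CPM in DH-LMP2A and 143, 110.0 and 151 CPM in kFRA. All kFRA libraries were above all others. Ppp1r15a rose against WT by a log2 fold change of 0.72 (SE 0.202, 95% interval 0.27 to 1.18, edgeR adjusted p = 0.0375). Against DH-LMP2A the value was 0.68 (SE 0.202) and did not pass (edgeR adjusted p = 0.0955). The call against WT was lost without kFRA replicate 1 (edgeR adjusted p = 0.116) or 3 (0.115) and without WT replicate 1 (0.0698) or 2 (0.120). Its exons share 12 bases with Tulp2, which was at most 0.0627 CPM.

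Trib3 (chr2:152337422-152344032, minus strand) encodes a pseudokinase that CHOP induces and that in turn restrains ATF4 and CHOP. It was at 2.02, 2.19 and 3.50 CPM in WT, 3.59, 3.20 and 4.89 CPM in DH-LMP2A and 3.90, 4.09 and 9.03 CPM in kFRA. Every kFRA library was above every WT library, kFRA replicate 3 being the highest, while DH-LMP2A overlapped both. The log2 fold change in kFRA was 1.14 (SE 0.382) against WT and 0.54 (SE 0.371) against DH-LMP2A, neither of which passed (edgeR adjusted p = 0.0668 and 0.412). Without kFRA replicate 2 the value against WT was 1.40 and passed (edgeR adjusted p = 0.0268), as did 38.8% of all genes.

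Chac1 and Sesn2 encode effectors inside the cell, and neither passed the test in any of the 3 comparisons. Chac1 (chr2:119351229-119354381, plus strand) encodes an enzyme that breaks down glutathione. It was measured at 16.9, 11.2 and 14.8 CPM in WT, 18.5, 15.5 and 16.9 CPM in DH-LMP2A and 12.99, 20.5 and 24.4 CPM in kFRA, with overlap between all genotypes. Its log2 fold change in kFRA was 0.19 against DH-LMP2A (95% interval −0.34 to 0.72) and 0.44 against WT. Sesn2 (chr4:132492032-132510501, minus strand) encodes sestrin 2, a leucine sensor that restrains the growth kinase mTORC1. Its level was 27.1, 34.0 and 27.4 CPM in WT, 23.9, 26.9 and 21.5 CPM in DH-LMP2A and 20.2, 34.6 and 30.4 CPM in kFRA. The DH-LMP2A libraries were all just below the WT libraries, at a log2 fold change of −0.29 (edgeR adjusted p = 0.412), and the kFRA libraries covered both ranges.

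The last members encode secreted hormones of stress. Fgf21 (chr7:45613907-45615490, minus strand) encodes a growth factor best known from liver and pancreas. It was counted 6, 6 and 7 times in the WT libraries, 4, 2 and 3 times in DH-LMP2A and 26, 28 and 43 times in kFRA, or 0.304, 0.306 and 0.446 CPM, 0.169, 0.0927 and 0.137 CPM, and 1.78, 1.33 and 2.695 CPM. All 3 kFRA libraries were above all others, and the DH-LMP2A libraries, which lay near the floor, were below WT. The level was thus low in every library, and the counts in DH-LMP2A replicates 2 and 3 were at or under the floor.

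Over the 3 libraries of each genotype, 97 counts of Fgf21 in kFRA stood against 9 in DH-LMP2A, a scaled ratio of 14.0 with an exact 95% interval for counting error of 7.08 to 31.6. Against the 19 counts in WT the ratio was 5.45 (3.31 to 9.44). The fitted log2 fold changes were 3.78 (SE 0.429, edgeR adjusted p = 0.000722) and 2.45 (SE 0.389, edgeR adjusted p = 0.00321), and the first depends on the prior count that the fit adds. As Fgf21 was tested only because of its kFRA counts, these p-values are given as a description and not as support. The adjusted p stayed under the threshold without any 1 library of the groups compared, which is again a description and not support. The ratio of DH-LMP2A to WT was 0.389 (0.155 to 0.902), with a fitted log2 fold change of −1.34 that did not pass (edgeR adjusted p = 0.112).

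Gdf15 (chr8:70629393-70632456, minus strand) encodes a cytokine that acts on the hindbrain to lower food intake. It was at 4.86, 2.14 and 3.37 CPM in WT, 1.06, 1.07 and 0.274 CPM in DH-LMP2A and 1.91, 3.33 and 2.51 CPM in kFRA. The DH-LMP2A libraries were below all others, DH-LMP2A replicate 3 with 6 counts being the lowest, and kFRA overlapped WT. Gdf15 fell in DH-LMP2A against WT by 2.10 on the log2 scale (SE 0.495, 95% interval −3.21 to −0.99, edgeR adjusted p = 0.0234). The call was lost without DH-LMP2A replicate 1 (edgeR adjusted p = 0.0525), WT replicate 1 (0.0791) or WT replicate 3 (0.0512). In kFRA the log2 fold change was 1.69 (SE 0.497) against DH-LMP2A and −0.41 (SE 0.462) against WT, and neither passed (edgeR adjusted p = 0.0919 and 0.542).

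The members also differed in how much of their variation lay between the genotypes. Of the variance of log2 CPM over the 9 libraries, 95.4% lay between genotypes for Fgf21, 81.6% for Ddit3, 73.2% for Gdf15 and 68.8% for Ppp1r15a. As Fgf21 passed the filter on low counts only through its kFRA libraries, its share is a description and not support. The same share was not computed over all genes, so these values have no background beside them. The share was 53.5 to 59.9% for Atf3, Atf4 and Trib3, 28.2% for Chac1, 22.8% for Sesn2 and 2.17% for Atf5. The spread within kFRA was widest in Atf3, with an SD of 0.850 on the log2 scale, and in Trib3, with 0.669, and for Atf4 it was 0.548 in kFRA against 0.106 in DH-LMP2A.

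Upstream of the members, none of the 4 eIF2alpha kinases passed the test in any comparison. Eif2ak3, which encodes PERK, had a log2 fold change of 0.42 (SE 0.132) in kFRA against WT, 0.41 in DH-LMP2A against WT and 0.01 in kFRA against DH-LMP2A, the first with an edgeR adjusted p of 0.0562. Eif2ak2, which encodes the double-stranded RNA sensor PKR, had −0.77, −1.13 and 0.36. Nor did any of the 16 genes of eIF2, eIF2B and the phosphatase pass, whose log2 fold changes lay between −0.45 and 0.54 in all 3 comparisons. At an unadjusted p under 0.05, edgeR gave 0 kinases in kFRA against DH-LMP2A, 1 higher in kFRA against WT, and 2 higher and 1 lower in DH-LMP2A against WT. Of all genes, 22.4%, 35.0% and 26.6% passed at that level in the same 3 comparisons. The kinases act by phosphorylation, which RNA levels do not measure.

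Of 83 other genes of the response listed in 4 roles, 79 were tested. In kFRA against DH-LMP2A, 2 of them rose and 2 fell, which is 5.06% against 5.02% of all genes, with a median log2 fold change of 0.19 against 0.00. In kFRA against WT, 2 rose and 4 fell, which is 7.59% against 17.8%. In DH-LMP2A against WT, 4 fell and none rose, which is 5.06% against 12.4%. Without kFRA replicate 2, 15 of the genes passed against DH-LMP2A, 11 of them higher, and 24 against WT, 18 of them higher, when 22.7% and 38.8% of all genes passed. None passed against DH-LMP2A without DH-LMP2A replicate 1 or 2 or kFRA replicate 1 or 3, so each gene named below for that comparison depended on those libraries. Against WT, 2 passed without kFRA replicate 1, 3 without WT replicate 2 and 4 without kFRA replicate 3, and in DH-LMP2A against WT 2 passed without DH-LMP2A replicate 1 or WT replicate 2. These shares were thus near or below the background when all libraries were used.

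Of the 43 tested other targets of ATF4 and CHOP, 2 rose and 1 fell in kFRA against DH-LMP2A, with a median log2 fold change of 0.26. That is 6.98% called, against 5.02% of all genes. Asns, which encodes asparagine synthetase, was at 44.6, 48.5 and 76.9 CPM in WT, 25.8, 22.7 and 30.4 CPM in DH-LMP2A and 90.5, 41.4 and 108 CPM in kFRA. The DH-LMP2A libraries were below all others, and kFRA replicate 2 lay below the WT range. Asns rose in kFRA by a log2 fold change of 1.60 (SE 0.342) against DH-LMP2A (edgeR adjusted p = 0.0289), while against WT it was 0.50 (edgeR adjusted p = 0.310). The glycine transporter gene Slc6a9 rose by 1.58 (SE 0.331, edgeR adjusted p = 0.0269) against DH-LMP2A, with means of 13.4 CPM in WT, 6.77 CPM in DH-LMP2A and 20.3 CPM in kFRA. It shares 1429 exon bases with Ccdc24 on the opposite strand, so its count is uncertain.

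In kFRA against WT, 1 of the 43 rose and 2 fell, which is 6.98% against 17.8% of all genes. In DH-LMP2A against WT 1 fell, which is 2.33% against 12.4%. Slc7a11, which encodes the cystine transporter that supplies glutathione synthesis, was at 10.02, 6.52 and 4.46 CPM in WT, 7.69, 7.14 and 4.12 CPM in DH-LMP2A and 1.37, 1.76 and 1.94 CPM in kFRA. The kFRA libraries were all below all others. It fell by 1.90 on the log2 scale against DH-LMP2A (edgeR adjusted p = 0.0167) and by 2.05 against WT (edgeR adjusted p = 0.00539). The promoter windows of both Asns, which rose, and Slc7a11, which fell, hold TGATGNAA. They are the only 2 of the 6 other targets named here that hold it. Of the listed other targets, 10 of the 36 with a window do, against 4.51% of genes. Slc3a2, which encodes the partner chain of amino acid transporters, fell in DH-LMP2A against WT by 1.17 on the log2 scale (edgeR adjusted p = 0.00513), with means of 914 CPM in WT, 405 CPM in DH-LMP2A and 597 CPM in kFRA. In kFRA against WT, the chaperone gene Dnajc3 rose by a log2 fold change of 0.81 (edgeR adjusted p = 0.0214), and Bcl2l11, which encodes the cell death protein BIM, fell by 0.84 (edgeR adjusted p = 0.0124).

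Among 16 partners and related factors, the pseudokinase gene Trib2 fell in all 3 comparisons. Its means were 15.7 CPM in WT, 7.07 CPM in DH-LMP2A and 3.16 CPM in kFRA, with no overlap between any of the genotypes. The log2 fold changes were −2.30 in kFRA against WT (edgeR adjusted p = 0.000658), −1.15 in DH-LMP2A against WT (edgeR adjusted p = 0.0217) and −1.16 in kFRA against DH-LMP2A (edgeR adjusted p = 0.0458). Its relative Trib1 rose by 0.81 in kFRA against WT (edgeR adjusted p = 0.0367). Cebpd fell by 2.43 on the log2 scale in kFRA against WT (edgeR adjusted p = 0.0216). In DH-LMP2A against WT, Batf3 fell by 1.94 (edgeR adjusted p = 0.00561) and Cebpb, which encodes a partner of ATF4, fell by 1.07 (edgeR adjusted p = 0.0385). Cebpb was chosen for mention after its values were seen, to complete the 3 that fell.

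**Figure D3:**
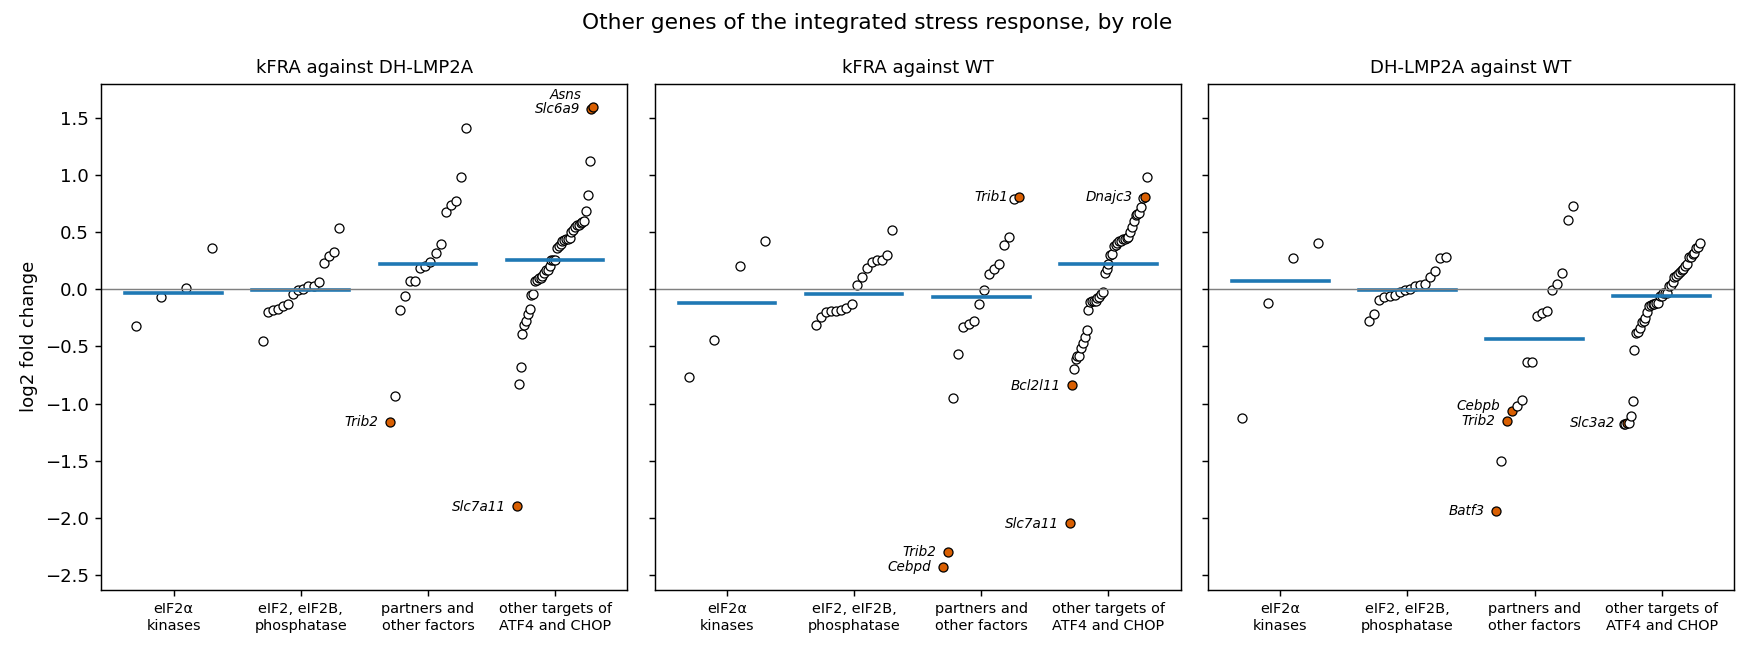
Log2 fold change of the tested genes of each of the 4 roles in the 3 comparisons, 1 point per gene in order of its value, with genes past the test filled and named and the median of each role as a blue line. The genes of eIF2, eIF2B and the phosphatase all lie between −0.45 and 0.54, and the named genes of the other roles lie on both sides of zero in kFRA and below it in DH-LMP2A against WT.

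Markers of other cell types differed between the genotypes as well. The summed level of 8 macrophage and monocyte markers was 3656 to 6428 CPM in WT, 1127 to 3473 CPM in DH-LMP2A and 2196 to 3518 CPM in kFRA. In kFRA against DH-LMP2A none of these 8 genes passed the edgeR test, 0 also at an unadjusted p under 0.05, and the ranges overlapped. Against WT, 1 of the 8 fell in kFRA and 1 in DH-LMP2A, where 11.1% and 7.30% of all genes fell. The 8 granulocyte markers summed to 451 to 1219 CPM in WT, 32.6 to 338 CPM in DH-LMP2A and 19.5 to 36.9 CPM in kFRA. Single markers did not all follow this sum. In DH-LMP2A against WT, 3 of the 7 tested had a positive log2 fold change, and 1 was called higher and 0 lower, where 5.07% and 7.30% of all genes were. In kFRA against WT, 4 of the 7 fell, where 11.1% of all genes did, and 1 had a positive log2 fold change. Mpo had means of 0.423, 1.76 and 1.19 CPM in WT, DH-LMP2A and kFRA. The 8 B cell markers summed to 617 to 889, 687 to 1054 and 486 to 604 CPM, so that kFRA was lowest. In kFRA, 5 of the 8 fell against WT, where 11.1% of all genes did, and 2 of the 8 against DH-LMP2A, where 3.30% did. In DH-LMP2A against WT, 2 of the 8 B cell markers rose, among them Ms4a1 (log2 fold change 1.19, edgeR adjusted p = 0.0182), and Cd22 (−2.78, 0.0136) and Ciita (−1.90, 0.0310) fell. The 8 erythroid markers summed lowest in WT, at 59.5 to 322 CPM against at least 1045 CPM elsewhere. Most of this sum was the haemoglobin genes Hba-a1 and Hbb-bs, with means of 77.8 and 80.5 CPM in WT. Their means were 2731 and 2733 CPM in DH-LMP2A and 943 and 839 CPM in kFRA. Against WT, 7 of the 8 had a positive log2 fold change in each genotype. Epor had a higher mean in WT (10.2 CPM) than in DH-LMP2A (6.09) or kFRA (8.52). T cell, NK cell and stromal markers each summed to at most 271 CPM in any library, and in none of these lists was a gene at 0 in a whole genotype.

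The mean log2 CPM of 53 such markers was 3.67 to 4.17 in WT, 3.75 to 3.97 in DH-LMP2A and 2.71 to 3.36 in kFRA. Since kFRA did not overlap the others, this measure and the kFRA genotype cannot be told apart. With the measure as a covariate, Ddit3 had a log2 fold change of 0.76 against DH-LMP2A (edgeR adjusted p = 0.918) and 0.87 against WT (0.462). Fgf21 had 4.03 (edgeR adjusted p = 0.0416) and 2.7 (0.148), and Ppp1r15a had 0.31 against WT (0.752). Gdf15 in DH-LMP2A against WT had −2.10 (edgeR adjusted p = 0.0366). With Xist as a covariate Ddit3 had 0.94 against DH-LMP2A (edgeR adjusted p = 0.0625), and Gdf15 had 2.14 (edgeR adjusted p = 0.0133).

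Fgf21 is also made by pancreatic acinar cells, and acinar genes were present in these spleen fractions. The 8 acinar markers summed to 124, 63.4 and 24.0 CPM in WT, 307, 760 and 1368 CPM in DH-LMP2A and 77.4, 2482 and 315 CPM in kFRA. The highest of these sums was in kFRA replicate 2, which had the lowest Fgf21 of the kFRA libraries. DH-LMP2A replicate 3, with the next highest sum, held 3 counts of Fgf21, while kFRA replicate 1, with 77.4 CPM of acinar markers, held 26. The part of acinar RNA in the level of Fgf21 was not tested.

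Atf3 and Gdf15 are also made by macrophages, and both were lowest in DH-LMP2A replicate 3, which of the 9 libraries also had the lowest sum of macrophage and monocyte markers (1127 CPM). The WT libraries, with 3656 CPM or more of these markers, held the highest Atf3. In Gdf15, DH-LMP2A replicate 2 (3473 CPM of these markers) had 1.07 CPM and kFRA replicate 2 (3518 CPM) had 3.33 CPM. The part of macrophage RNA in the levels of Atf3 and Gdf15 was not tested.

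**Figure D4:**
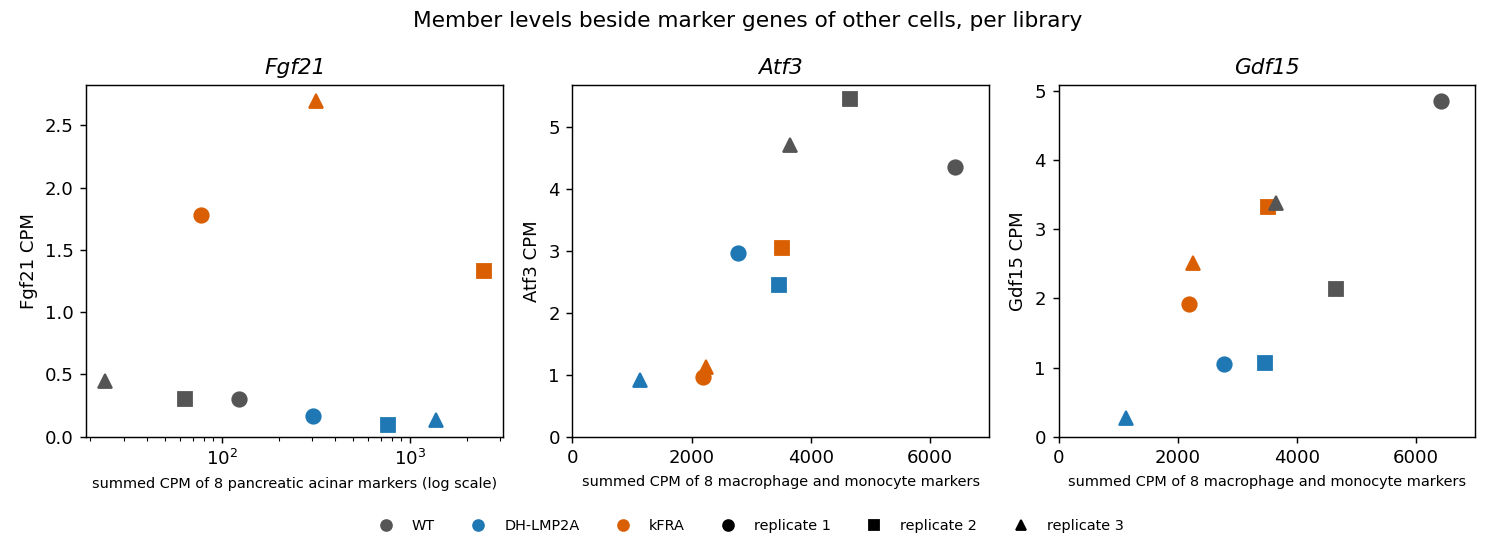
Level of Fgf21 (CPM) in each library against the summed level of 8 acinar markers (CPM, log axis), and of Atf3 and Gdf15 against that of 8 macrophage and monocyte markers (CPM), with genotype as colour and replicate as symbol. The 3 kFRA libraries lie highest in Fgf21 at acinar sums from 77.4 to 2482 CPM, and the WT libraries lie highest in both Atf3 and macrophage markers.

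The genes whose levels followed those of Atf4 and Ddit3 most closely over the 9 libraries were picked from 9626 genes with a mean of at least 5 CPM. For Ddit3 they were Rilpl2, Cc2d1b, H2-T10, Ranbp3 and Fam63a, with Pearson r between 0.97 and 0.98 of log2 CPM. For Atf4 they were Selk, Hars, Rnf5, Dhrs7 and Hax1, with r of 0.99 or above. Within the genotypes, after each genotype's mean was subtracted, r was 0.88 to 0.96 for the first and 0.98 to 0.99 for the second. These values describe 9 libraries that share genotype, depth and cell makeup, and the genes were picked as the highest of many.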

How the data were processed

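The authors deposited raw read counts per gene in a featureCounts layout, per the file headers. STAR 2.4.0a, featureCounts from Subread 1.5.0-p3, DESeq2 and the builds mm10 and GRCm38 are named, without roles, per the submitters' processing notes. The kit was strand-specific, per the labels' protocols, but the strand setting of the counting, the treatment of multimapping reads and the annotation release are not given in the sources used here, so genes sharing exon bases with another gene are uncertain. Of 44104 symbols found once in GENCODE M21, 99.85% overlapped that GRCm38 span, and coordinates are those of the table.

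All 9 count columns were used. No 2 replicates agreed within sampling noise (chi-square per degree of freedom 17.3 to 164). With edgeR 4.0.16 (limma 3.58.1, R 4.3.3), filterByExpr left 14199 genes, 258 of them immunoglobulin genes. Libraries were scaled by TMM, and all 9 entered 1 quasi-likelihood fit, in which each genotype had its own coefficient. The 3 contrasts were tested 2-sided, with Benjamini-Hochberg adjustment over all genes and 0.05 as the threshold. The SE was computed as the size of the log2 fold change over the root of F. CPM is scaled by TMM, and log2 CPM has a prior count of 2. The model was tested on simulated data. The intervals of log2 fold changes come from this fit and include the spread between mice. The exact intervals of the Fgf21 ratios and the floor of 3 counts cover counting error only.

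The members, gene lists and tests were chosen with earlier results of these data known. All members are named, and of each other role the 2 called genes per comparison and direction with the smallest p. The alternatives were other scaling, filters and thresholds, DESeq2 1.42.0, the replicate number as a block, covariates of marker genes and of Xist, only the 6 libraries compared, and leaving out each library. Promoter windows are RefSeq's, and motifs were searched with Python 3.11.15. Replicate numbers come from the sample titles and name different mice.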

Additional observations from a re-analysis of the deposited data

How the results depend on the processing

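Over the members' log2 fold changes and all alternatives, 400 values kept direction and side of the threshold, 15 came to pass, 19 ceased to pass and 33 changed sign. In kFRA against DH-LMP2A, the 2 members called became 1 with a mean of at least 5 CPM, with the marker covariate, with only the 6 libraries and at adjusted p under 0.01, and 4 with the DESeq2 Wald test (1 to 4 leaving out a library). In kFRA against WT, the 3 became 5 with library size alone, 0 with the marker covariate and 6 with the Wald test (2 to 6 leaving out a library). In DH-LMP2A against WT, the 1 became 0 with library size alone, a mean of at least 5 CPM and adjusted p under 0.01 (0 to 1 leaving out a library). Of all genes, the 713 called against DH-LMP2A became 151 with the marker covariate, 1405 with the Wald test and 306 at adjusted p under 0.01 (352 to 3299 leaving out a library, the highest without kFRA replicate 2). The 2523 against WT became 274 with the marker covariate, 975 at adjusted p under 0.01 and 1588 at a fold of at least 2 (1271 to 5632, again highest without kFRA replicate 2). The 1756 of DH-LMP2A became 1094 with a mean of at least 5 CPM and 765 at adjusted p under 0.01 (932 to 1408 leaving out a library). Other genes of the response called in kFRA against WT numbered 6, and 19 with library size alone, 14 with the Wald test and 0 with the marker covariate. Library size alone shifted the median of all genes by −0.13, 0.21 and 0.34 in the 3 comparisons and raised the share of higher among called genes from 37.6 to 72.0% in kFRA against WT and from 41.0 to 79.9% in DH-LMP2A against WT. Same-numbered libraries did not pair throughout (4 of 9 pairs with r over 0.1, and 2 of 9 libraries correlated best with their own number). The pairs of replicate 3 had r of 0.12, 0.16 and 0.16, while r between different numbers reached 0.29. With the replicate block, 2, 5 and 1 members and 685, 2930 and 2067 genes were called, Atf3 (−1.60, edgeR adjusted p = 0.0393) and Trib3 (1.08, 0.0161) joining in kFRA against WT, where 13 other genes of the response were called. Signs that changed, none of them in a called value, were those of Atf3 in kFRA against DH-LMP2A (0.04 with the marker covariate, −0.95 to 0.09 leaving out a library), Atf5 there (−0.15 library size, −0.01 no filter, −0.02 replicate block, −0.12 Xist, −0.33 to 0.27 leaving out a library) and Chac1 there (−0.02 to 0.40), Atf5 in kFRA against WT (0.10 library size, 0.53 marker covariate, −0.44 to 0.16) and Sesn2 there (0.18, 0.58, −0.15 to 0.14), and in DH-LMP2A against WT Atf4 (−0.02 with a mean of at least 5 CPM, −0.01 marker covariate, 0.00 with 6 libraries, −0.12 to 0.17), Ddit3 (−0.06 to 0.23), Atf5 (0.25 library size, −0.29 to 0.11), Ppp1r15a (−0.13 to 0.17) and Sesn2 (0.05 library size). The cause was not tested. Fgf21, Gdf15, Atf3 and Trib3 gave no value with a mean of at least 5 CPM, nor Fgf21 in DH-LMP2A against WT with only the 6 libraries, and depth limits Fgf21 most.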

Other observations

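Immediate early genes, which cells switch on within minutes of handling or stimulation and which include partners of Atf3, were listed, together with the heat shock genes Hspa1a and Hspa1b, because Atf3 and Ppp1r15a answer to handling too. The summed level of the 13 listed genes was 1725 to 2063 CPM in WT, 900.2 to 3344 CPM in DH-LMP2A and 2482 to 4245 CPM in kFRA. None of the 13 passed the edgeR test in kFRA against DH-LMP2A. At an unadjusted p under 0.05, which 22.4% of all genes passed, 2 were higher. In kFRA against WT, 1 of the 13 rose and 1 fell, which is 15.4% against 17.8% of all genes. Btg2 rose by a log2 fold change of 0.58 (edgeR adjusted p = 0.0464) and Nr4a1 fell by 1.45 on the log2 scale (edgeR adjusted p = 0.00846). The kFRA libraries lay entirely above the WT libraries in 6 of the 13, against 14.2% of all genes, and entirely below them in 2, against 20.2%. Fosb was at a mean of 40.9 CPM in WT, 142 CPM in DH-LMP2A and 392 CPM in kFRA, and its log2 fold change of 3.26 in kFRA against WT did not pass (edgeR adjusted p = 0.0502). Hspa1a and Hspa1b had log2 fold changes of −1.96 and −2.47 in kFRA against WT, neither of which passed (edgeR adjusted p = 0.122 and 0.102). Nr4a1 also fell in DH-LMP2A against WT, by 1.08 (edgeR adjusted p = 0.0334). It was the only gene of the list called there, which is 7.69% against 12.4% of all genes. The part of these genes in the levels of Atf3 and Ppp1r15a was not tested.

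Atf3 and Ddit3 ran in opposite orders in DH-LMP2A and kFRA, but not throughout WT. In DH-LMP2A, replicate 3 had the highest Ddit3 and the lowest Atf3, and in kFRA, replicate 2 had the lowest Ddit3 and the highest Atf3. In WT, replicate 2 had the lowest Ddit3 and the highest Atf3, but replicate 3 had the highest Ddit3 and replicate 1 the lowest Atf3. After each genotype's mean was subtracted, Pearson's r over the 9 libraries was −0.88 for this pair and 0.94 for Atf5 with Trib3. These are the extremes of 45 pairs of members, picked after their values were seen, and describe libraries that share depth and cell makeup.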
